A study of Saccharomyces cerevisiae with 10 samples.

Results

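The amino acid biosynthesis genes of the yeast Saccharomyces cerevisiae, outside sulfur metabolism, were examined together with GCN4 in wild-type cells and in cells lacking EDC3. The members were 53 named genes, chosen by their place in a pathway, with earlier results of these data known. The array's annotation tied 56 probe sets to exactly 1 of them, out of 9275 probe sets that are not controls. LEU2 had 3 probe sets, HIS3 had 2, and the other 51 genes had 1 each. In the plots and the text these are numbered in brackets, as LEU2 (1) to LEU2 (3). A further probe set that the annotation gives to LYS20 and LYS21 jointly was left out. All 56 passed the filter on dim probe sets, which kept 6492 for testing.

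The wild-type group was strain HFY114. The other group was a strain deleted for EDC3, an activator of mRNA decapping, which the sample labels call CFY25 and the design text calls SYY14. The strains are described as isogenic, and each genotype was represented by 1 strain. All cultures grew untreated in rich medium (YEPD) at 30 °C, and neither the marker alleles of the strains nor the cassette that replaced EDC3 could be taken from the labels. There were 5 Affymetrix Yeast Genome S98 arrays per strain, hybridised in 5 experiments lettered A, B, C, E and G, each with 1 array of each strain. EDC3 read 456.8 to 480.5 on the wild-type arrays and 0.1 to 2.3 on the deletion arrays. The values are MAS5 signals, a brightness per probe set on a linear scale after scaling of each array.

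Yeast cells make every amino acid from central metabolites, along branches that start from aspartate, pyruvate, glutamate, 3-phosphoglycerate, the shikimate route or phosphoribosyl pyrophosphate. Gcn4 is the transcription activator of most of these enzymes. When amino acids run short, the kinase Gcn2 slows general translation initiation, and short upstream reading frames in the GCN4 leader then let more Gcn4 protein be made, so that Gcn4 activity is set largely at translation and not by its mRNA level. Rich medium supplies amino acids, a condition in which this response is known to be low.

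The arrays of the experiments were not equally far apart. Over the 56 probe sets, the median absolute log2 difference between experiments E and G was 0.06 in wild type and 0.07 in the edc3 strain. For the other pairs of experiments it was 0.14 to 0.25 in wild type and 0.15 to 0.23 in the edc3 strain. Between the strains within an experiment it was 0.10 to 0.13. The design text calls the 5 experiments independent and the labels call the arrays biological replicates. Since the arrays of E and G were this alike, strain calls are also given below for A, B and C alone, and the experiment tests of genes high in E and G also with these averaged as 1 replicate. By the instrument records E was scanned once at 2.5 µm, A and B were scanned at 3 µm with 2 scans, and for C and G no such entries were used.

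No member passed the test between the strains. In the limma fit over all 6492 probe sets, 0 of the 56 had an adjusted p under 0.05, where 0.0770% of all probe sets were called. With the experiments as a block, which sets each deletion array against the wild-type array of its own experiment, 0 of 56 were called as well, against 0.447% of all. At an unadjusted p under 0.05 there was 1 of 56 without the block (4.82% of all) and 14 of 56 with it, or 25.0% against 23.1% of all. The smallest adjusted p among the members was 0.993 without the block, for SER1, and 0.0799 with it, for ILV6. The median log2 difference, deletion minus wild type, was -0.03 over the 56 and -0.004 over all 6492, and the members' differences ran from -0.37 (ARG1) to 0.37 (TRP1).

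The size of the strain differences can be bounded from their 95% intervals, each unadjusted and for 1 probe set alone. They do not give the smallest difference that the adjusted test could call. Without the block, 47 of the 56 intervals lay wholly within a 1.5-fold change in either direction and 55 within a 2-fold change. The exception at 2-fold was ARG3, with an interval from -1.09 to 0.55 on the log2 scale. With the block, 54 lay within 1.5-fold, the others being ARG3 and TRP1, and all 56 within 2-fold. These intervals count E and G as separate replicates, and none was computed with E and G averaged. If E and G are not independent, the intervals are too narrow. The standard error of a member's difference had a median of 0.11 without the block and 0.06 with it, against 0.14 and 0.08 over all probe sets. Standard errors given below are those without the block unless stated. They include differences between experiments that the strains shared, and for THR1 the value was 0.235 without the block and 0.06 with it.

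Lower signals in the edc3 strain were measured for 33 of 56 probe sets, 58.9% against 51.1% of all. In every one of the 5 experiments 12 probe sets were lower, or 21.4% of the members against 10.2% of all tested, and 5 were higher, or 8.93% against 10.2%. The 12 were those of GCN4, ARG4, HIS2, HIS3 (1), ILV1, ILV3, ILV6, LYS4, LYS21, HOM3, HOM6 and SER3. The 5 were those of TRP1, LEU1, LEU9, LYS1 and LYS12. Arrays of the strains did not overlap at all for ILV1 and HOM3, both lower in the deletion, which is 2 of 56 or 3.57%, against 0.632% of all probe sets. In the opposite direction 0 of 56 were apart, against 0.570% of all.

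**Figure D1:**
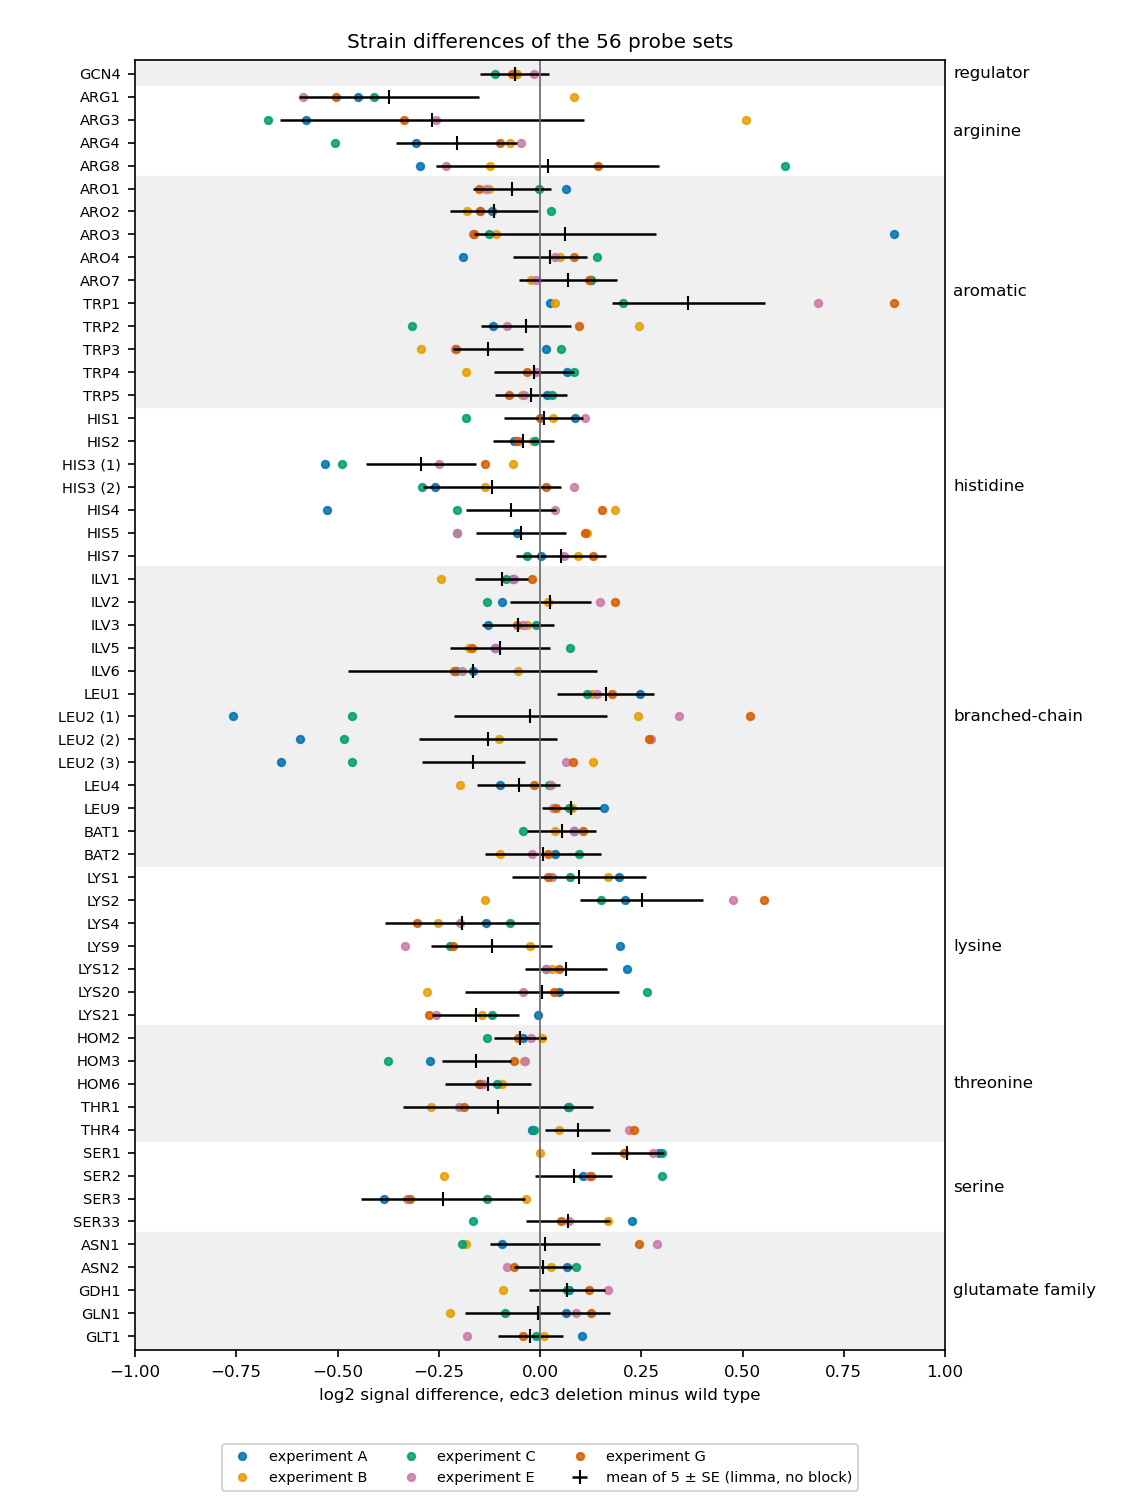
Differences in log2 signal, edc3 deletion minus wild type, for the 56 probe sets in 9 groups. Coloured points are the 5 experiments, black ticks their mean and black bars the standard error of limma's fit without the block (5 arrays per strain). The means lie between -0.37 and 0.37, and the points of ARG3, ARG8, ARO3, TRP1 and LEU2 are the most spread.

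GCN4 (YEL009C), the regulator, lies on the chromosome arm of the deleted gene, with 5 protein-coding genes between it and EDC3 in the R64 annotation. Its signals in experiments A, B, C, E and G were 2655.4, 3315.5, 3007.4, 2837.5 and 2805.6 in wild type and 2547.6, 3187.5, 2786.3, 2805.4 and 2675.8 in the edc3 strain. Each deletion array was below its wild-type partner, while the groups as wholes overlapped. The log2 difference was -0.06 ± 0.09 (SE, n = 5 per strain, adjusted p = 0.999), with a 95% interval from -0.25 to 0.12. With the block the SE was 0.03 (adjusted p = 0.303) and the 95% interval ran from -0.14 to 0.015. The difference in GCN4 mRNA was thus smaller than the spread between the arrays of a strain (log2 SD 0.12). That spread includes differences between experiments that the strains shared. Within the pairs the difference ran from -0.11 in C to -0.02 in E. It passed in neither fit. This measurement says nothing of the Gcn4 protein.

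Of the 4 arginine genes, 3 had lower and 1 had higher mean signals in the edc3 strain, with a median log2 difference of -0.24, and 0 passed the test. ARG1, argininosuccinate synthetase, read 388.6, 268.1, 302.9, 540.8 and 563.9 in wild type and 284.7, 284.4, 227.9, 360.7 and 397.5 in the edc3 strain. In 4 of 5 experiments the deletion array was lower, and in experiment B it was slightly higher. The difference of -0.37 ± 0.22 (SE, adjusted p = 0.999; blocked adjusted p = 0.0827) was the most negative of the 56 probe sets. Without experiment B, ARG1 passed in the blocked fit, at -0.49 (adjusted p = 0.0235). In experiments E and G alone it passed without the block, at -0.54 (adjusted p = 0.00308). With E and G averaged as 1 replicate ARG1 was at -0.33 and did not pass, without or with the block (blocked adjusted p = 0.242). In A, B and C alone it was at -0.26 and did not pass either (adjusted p = 0.9995, blocked 0.520). The fits in which it passed thus all include E and G as separate replicates, whose arrays were nearly alike.

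ARG3, ornithine carbamoyltransferase, had the same order of strains in the same 4 experiments. It went from 24.3 to 93.4 over the 10 arrays, a 3.84-fold span and the widest of all members, and its strain difference was -0.27 ± 0.38 (SE). ARG4, argininosuccinate lyase, was lower in all 5 experiments, by 0.05 to 0.51 on the log2 scale. ARG8, the acetylornithine aminotransferase of mitochondria, differed by 0.02 ± 0.28 (SE), with -0.30 in experiment A and 0.61 in experiment C. The log2 SDs of ARG3 and ARG8 within a strain were 0.70 and 0.49, against a member median of 0.175.

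The 10 genes of the aromatic family split into 6 lower and 4 higher, with a median of -0.02 and 0 called. ARO1, the enzyme that carries the middle of the shikimate route, ARO2, chorismate synthase, and ARO7, chorismate mutase, had differences of -0.07 ± 0.10, -0.11 ± 0.11 and 0.07 ± 0.12 (SE). ARO3 and ARO4 encode the isozymes of the first step, inhibited by phenylalanine and by tyrosine. ARO3 read 627.2, 1446.6, 1417.3, 1612.9 and 1576.1 in wild type and 1148.4, 1341.1, 1298.1, 1438.5 and 1408.9 in the edc3 strain. The wild-type array of experiment A was far below all others and was the only one of the wild-type arrays below its deletion partner. With it the ARO3 difference was 0.06 ± 0.23 (SE), and without it -0.19 (adjusted p = 0.990). ARO4 differed by 0.025 ± 0.09 (SE), with both strains between 1045.0 and 1450.6. The tryptophan branch from anthranilate synthase (TRP2) through TRP4 and TRP3 to tryptophan synthase (TRP5) had differences of -0.03, -0.02, -0.13 and -0.02. The remaining gene of the branch, TRP1, is described with the marker genes below.

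Histidine genes numbered 6, with 7 probe sets, of which 5 were lower and 2 higher, a median of -0.05 and 0 called. HIS1, which commits phosphoribosyl pyrophosphate to the pathway, differed by 0.01 ± 0.10 (SE). HIS7, the imidazole glycerol phosphate synthase, differed by 0.05 ± 0.11 (SE), and HIS4, which carries several steps in one protein, by -0.07 ± 0.11 (SE). In HIS4 the experiments disagreed, from -0.53 in A to 0.19 in B. HIS2, the histidinol phosphatase, stayed between 197.3 and 225.8 on all 10 arrays, a span of 1.14-fold, and HIS5, the histidinol-phosphate aminotransferase, differed by -0.05 ± 0.11 (SE).

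The branched-chain family held 11 genes and 13 probe sets, 8 lower and 5 higher, with a median of -0.05 and 0 called. ILV1, threonine deaminase, makes the precursor of isoleucine. It read 1025.9, 1066.0, 1033.2, 1006.1 and 985.8 in wild type and 980.1, 900.1, 974.5, 962.8 and 973.1 in the edc3 strain. Every deletion array was below every wild-type array. With such a lack of overlap the exact two-sided permutation test always gives 0.00794, unadjusted and the smallest value 5 against 5 arrays can give. It adds nothing to the lack of overlap. That test exchanges all 10 arrays freely, and an exchange within the 5 pairs could not give a p below 0.0625. The log2 difference was -0.10 ± 0.07 (SE, adjusted p = 0.999; blocked adjusted p = 0.258), or 0.936-fold.

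ILV6, the regulatory subunit of acetolactate synthase, read 2264.2, 895.6, 2332.9, 2334.0 and 2257.9 in wild type and 2017.9, 862.7, 2020.3, 2043.5 and 1949.7 in the edc3 strain. Both arrays of experiment B were far below the other 8. Each deletion array was below its partner, by 0.05 in B and by 0.17 to 0.21 in the others. The difference of -0.17 came with an SE of 0.31 without the block and of 0.04 with it (adjusted p = 0.999 and 0.0799). ILV2, its catalytic partner, differed by 0.03 ± 0.10 (SE). ILV5 and ILV3, which complete the common route, differed by -0.10 ± 0.12 and -0.05 ± 0.09 (SE).

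In the leucine branch, LEU4 and LEU9 encode the isopropylmalate synthases that open it. LEU9 was slightly higher in the edc3 strain in all 5 experiments, at 322.2 to 354.1 in wild type and 342.7 to 372.2 in the edc3 strain, a difference of 0.08 ± 0.07 (SE). LEU4 had the other sign, at -0.05 ± 0.10 (SE), and neither passed. LEU1, the isopropylmalate isomerase, read 1044.1, 841.9, 855.0, 1030.9 and 1102.7 in wild type and 1239.1, 920.2, 926.2, 1136.7 and 1247.1 in the edc3 strain. It was higher in each experiment by 0.12 to 0.25, and its difference was 0.16 ± 0.12 (SE, adjusted p = 0.999; blocked adjusted p = 0.0882). BAT1 and BAT2, the mitochondrial and the cytosolic branched-chain aminotransferase, differed by 0.05 ± 0.09 and 0.01 ± 0.14 (SE).

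Of the 7 lysine genes, 3 were lower and 4 higher, with a median of 0.005 and 0 called. LYS20 and LYS21 encode homocitrate synthases, the entry to the pathway. LYS21 read 998.3, 930.6, 1064.4, 1271.0 and 1260.9 in wild type and 993.9, 843.6, 981.0, 1063.2 and 1043.1 in the edc3 strain, lower in each experiment, with a difference of -0.16 ± 0.11 (SE, adjusted p = 0.999; blocked adjusted p = 0.124). LYS20 differed by 0.01 ± 0.19 (SE), with -0.28 in experiment B and 0.27 in C. Whether the copies differ from each other in their response was not tested.

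LYS4, homoaconitase, was lower in every experiment, by 0.07 to 0.30 on the log2 scale, with mean signals of 249 ± 60.0 in wild type and 217 ± 46.3 without EDC3 (SD, n = 5 each). LYS2, the aminoadipate reductase, had the smallest strain p of the family without the block, and LYS4 had it with the block (blocked adjusted p = 0.105). LYS2 read 332.4, 305.8, 224.9, 222.7 and 221.3 in wild type and 384.8, 278.1, 249.7, 309.9 and 324.6 in the edc3 strain. The deletion arrays were higher in 4 of 5 experiments, most in E and G, by 0.48 and 0.55. Its difference over all arrays was 0.25 ± 0.15 (SE, adjusted p = 0.999). It was 0.075 in A, B and C alone (adjusted p = 0.9995) and 0.515 in E and G alone (adjusted p = 0.00182). The saccharopine enzymes LYS9 and LYS1 differed by -0.12 ± 0.15 and 0.10 ± 0.17, and LYS12, homoisocitrate dehydrogenase, by 0.06 ± 0.10 (SE).

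The 5 genes of the aspartate to threonine route had 4 lower and 1 higher, with a median of -0.10 and 0 called. HOM3, aspartate kinase, the first enzyme of the route, read 412.1, 415.0, 431.8, 409.9 and 427.3 in wild type and 341.6, 404.0, 332.9, 399.9 and 408.7 in the edc3 strain. All deletion arrays were below all wild-type arrays, with the larger gaps in experiments A and C. Mean signals were 419 ± 9.73 and 377 ± 36.9 (SD, n = 5 each). On the log2 scale this is -0.16 ± 0.09 (SE, adjusted p = 0.999, blocked adjusted p = 0.199). The exact permutation test gave 0.00794, again unadjusted, the smallest possible and fixed by the lack of overlap. HOM6, homoserine dehydrogenase, was lower by 0.10 to 0.15 in each experiment and differed by -0.13 ± 0.11 (SE, adjusted p = 0.999; blocked adjusted p = 0.0887). HOM2, aspartic semialdehyde dehydrogenase, was the steadiest member, between 1112.4 and 1243.0, a span of 1.12-fold. THR1, homoserine kinase, and THR4, threonine synthase, differed by -0.10 ± 0.24 and 0.09 ± 0.08 (SE).

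Among the 4 serine genes, 1 was lower and 3 were higher, with a median of 0.08 and 0 called. SER1, the phosphoserine aminotransferase, had the smallest unadjusted strain p of all members without the block. It read 410.7, 533.4, 486.7, 442.8 and 469.1 in wild type and 503.5, 533.4, 599.5, 537.6 and 541.4 in the edc3 strain. The arrays of experiment B were equal and the other 4 deletion arrays were above their partners. Mean signals were 469 ± 46.2 and 543 ± 34.9 (SD, n = 5 each), and on the log2 scale the strains differed by 0.22 ± 0.09 (SE, adjusted p = 0.993; blocked adjusted p = 0.0911). SER3 and SER33 encode isozymes of 3-phosphoglycerate dehydrogenase, which opens the pathway. SER3 read 21.4 to 40.7 in wild type and 19.6 to 32.6 in the edc3 strain and differed by -0.24 ± 0.20 (SE). SER33 differed by 0.07 ± 0.10 and SER2, the phosphatase of the last step, by 0.08 ± 0.10 (SE).

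The 5 genes of glutamate, glutamine and asparagine synthesis gave 2 lower and 3 higher, a median of 0.01 and 0 called. GDH1, the NADP-dependent glutamate dehydrogenase, had the smallest strain p of these, with 0.07 ± 0.09 (SE). GLN1, glutamine synthetase, differed by -0.01 ± 0.18 and GLT1, glutamate synthase, by -0.02 ± 0.08 (SE). The asparagine synthetase genes ASN1 and ASN2 both had mean differences of 0.01, but their experiments ran differently. ASN1 was lower in the edc3 strain by 0.09 to 0.19 in A, B and C and higher by 0.29 and 0.24 in E and G, whereas ASN2 stayed within 0.09 of zero in all 5.

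LEU2, HIS3 and TRP1 are widely used in yeast laboratories as selectable markers, and strains often carry defective alleles of them, so that their signals depend on strain construction as well as on regulation. Their 6 probe sets gave 0 calls with or without the block. LEU2 encodes isopropylmalate dehydrogenase. LEU2 (3) read 879.2, 561.4, 844.1, 649.9 and 656.7 in wild type and 564.5, 614.8, 611.9, 679.1 and 695.1 in the edc3 strain. The wild-type arrays of A and C stood above all others, and in B, E and G the strains were close.

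LEU2 (1) read 194.0, 112.5, 140.8, 95.8 and 92.5 in wild type and 114.6, 133.1, 102.0, 121.5 and 132.5 in the edc3 strain. LEU2 (2) read 327.0, 187.6, 249.7, 174.1 and 181.1 in wild type and 217.0, 174.9, 178.4, 210.3 and 218.0 in the edc3 strain. The 3 probe sets thus shared a sign in 4 of 5 experiments: the deletion was lower by 0.46 to 0.76 in A and C, and higher by 0.06 to 0.52 in E and G. Their mean differences were -0.02 ± 0.19, -0.13 ± 0.17 and -0.17 ± 0.13 (SE). In experiments E and G alone the first and the second passed as higher, with 0.43 and 0.27 (adjusted p = 0.0181 and 0.0216). LEU2 (3), the brightest, did not pass there, at 0.07 (adjusted p = 0.251, blocked 0.128). In experiments A, B and C alone the values were -0.33, -0.39 and -0.32 and did not pass (adjusted p = 0.9995 each). The change of direction between these experiments was not tested.

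HIS3 encodes imidazoleglycerol-phosphate dehydratase. HIS3 (1) read 81.6, 63.8, 76.5, 92.0 and 80.1 in wild type and 56.5, 60.9, 54.5, 77.4 and 72.9 in the edc3 strain. It was lower in every experiment, with overlapping groups and a difference of -0.29 ± 0.14 (SE, adjusted p = 0.999; blocked adjusted p = 0.112). HIS3 (2) read 21.3 to 35.4 and was lower in A, B and C and higher by 0.08 and 0.01 in E and G, for a difference of -0.12 ± 0.17 (SE).

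TRP1, phosphoribosylanthranilate isomerase, read 51.6, 74.2, 73.6, 45.4 and 43.3 in wild type and 52.5, 76.1, 84.8, 73.1 and 79.4 in the edc3 strain. In A and B the strains were nearly equal, and in E and G the wild-type arrays were the lowest of the 10. The difference of 0.37 ± 0.19 (SE, adjusted p = 0.999; blocked adjusted p = 0.164) had a 95% interval from -0.05 to 0.78. It was 0.09 in experiments A, B and C alone (adjusted p = 0.9995) and 0.78 in E and G alone (adjusted p = 0.00801). With E and G averaged as 1 replicate it was 0.26 and did not pass.

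**Figure D2:**
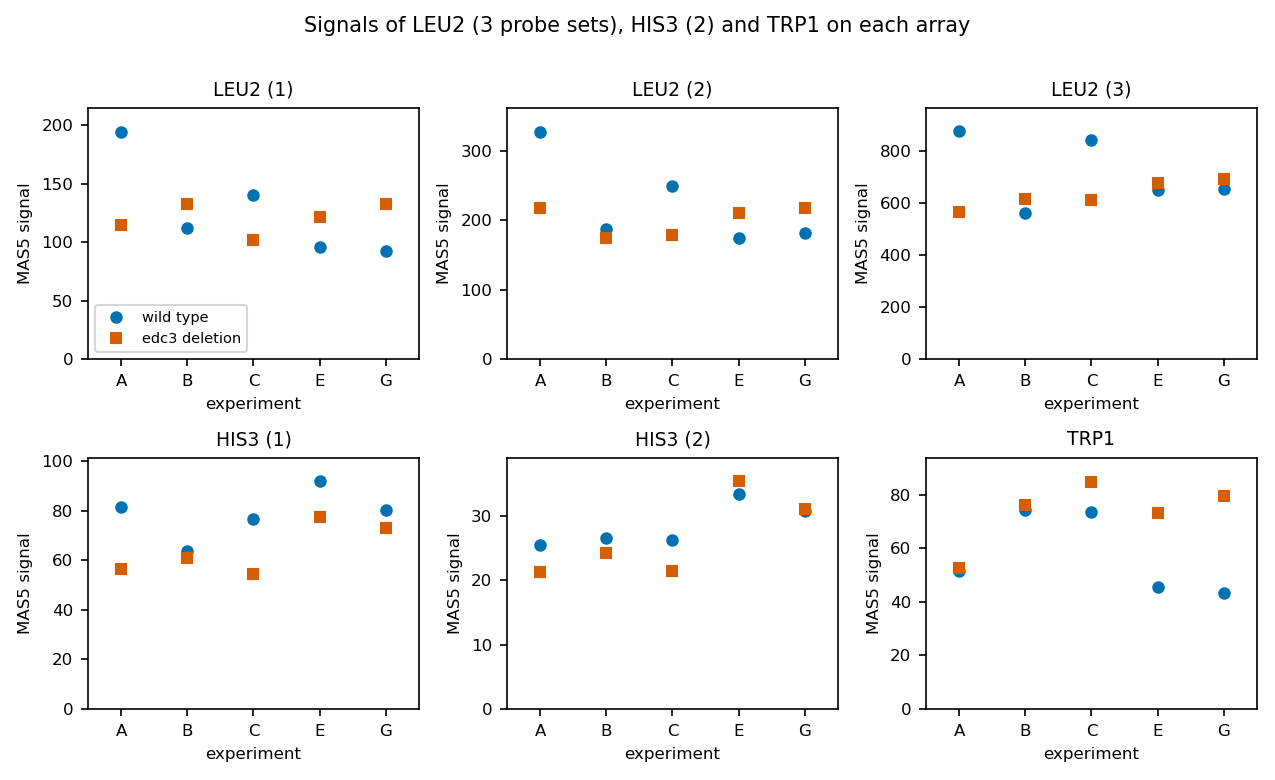
MAS5 signals (linear axis from 0) of the 3 LEU2, 2 HIS3 and 1 TRP1 probe sets on each of the 10 arrays, by experiment letter. Circles are wild type and squares the edc3 deletion, 1 array each; LEU2 wild-type signals are highest in A and C, and TRP1 wild-type signals are lowest in E and G, at 45.4 and 43.3.

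Strain calls over all members were also made in each set of experiments. In experiments A, B and C alone 0 of 56 probe sets were called, without the block (0.0308% of all) or with it (0.0462% of all). In E and G alone 10 of 56 were called without the block, against 19.5% of all, and 25 of 56 with it, against 35.1% of all. Of the 10, 8 were higher in the deletion (10.5% of all probe sets were called higher) and 2 lower (8.96% of all). They were the probe sets of TRP1, LEU2 (1), LEU2 (2), ILV2, LYS2, THR4, SER1 and ASN1 on the higher side and of ARG1 and LYS21 on the lower side. With the block 12 were higher (17.0% of all) and 13 lower (18.1% of all). The log2 ratio of 3′ to 5′ control signals, a measure of RNA integrity and labelling, was higher in wild type than in the edc3 strain in E and G for SRB4, SPT15 and ACT1, by 0.08 to 0.83. In C it was higher for all 3 as well, by 0.005 to 0.33, and in A and B for 2 of 3. Its part in the strain values was not tested. These calls rest on 2 arrays per strain that were nearly alike, and none of them was made over all 5 experiments.

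Many members differed between experiments. In the fit with strain and experiment, an F test over the 5 experiments called 30 of 56 probe sets, or 53.6%, at an adjusted p under 0.05. The background was 51.8% of all tested probe sets, so the share is near that of the array as a whole. With E and G averaged the count was 27 of 56, against 45.3% of all. By family the calls were 4 of 4 for arginine, 6 of 7 for lysine, 7 of 13 for the branched-chain family, 4 of 10 for aromatic, 3 of 5 for glutamate, 2 of 7 for histidine, 2 of 5 for threonine and 1 of 4 for serine, and GCN4 was called. The experiment means of a member spanned 0.39 on the log2 scale in the median, from 0.035 (ILV1) to 1.44 (ARG3), while the median span of all tested probe sets was 0.48.

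**Figure D3:**
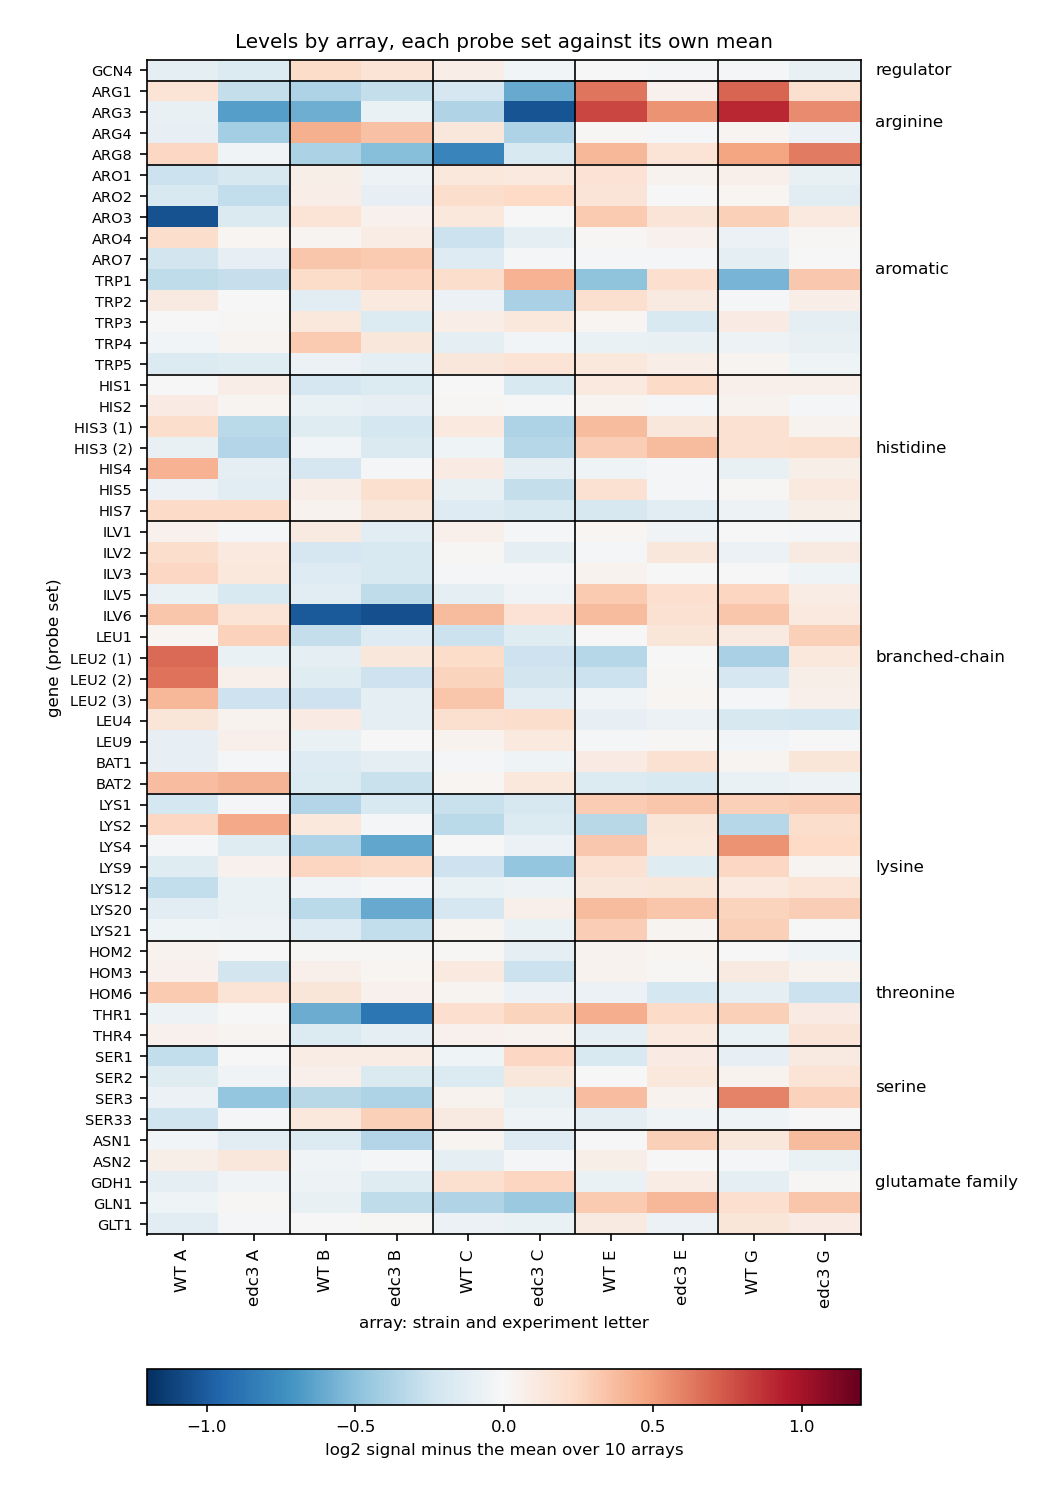
Log2 signal of each of the 56 probe sets on each array, minus the probe set's own mean over the 10 arrays, with arrays paired by experiment. Red is above and blue below the mean; ILV6 and THR1 are low on both arrays of B, and arginine and lysine genes are mostly above their mean in E and G.

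Experiments E and G were high for some families. Below, a level is the mean log2 signal of the strains in an experiment minus the mean over the 5 experiments. All 4 arrays of E and G lay above all 6 of A, B and C for 9 of 56 probe sets, 16.1% of the members against 9.50% of all. They lay below for 0 of 56, against 16.5% of all. With quantile normalization, an alternative added after the data were seen, the counts were 11 above (12.6% of all) and 2 below (13.2% of all). The 9 were ARG3, HIS3 (2), ILV5, BAT1, LYS1, LYS4, LYS12, LYS20 and GLN1, and 4 of them belong to the lysine pathway. The 3′ to 5′ ratio of SRB4 was 3.22 to 4.41 on the log2 scale in E and G and 2.39 to 3.51 in A, B and C, with 1 array of C inside the range of E and G. For SPT15 the ranges were 2.28 to 2.57 and 2.11 to 2.41, and for ACT1 they were 0.66 to 0.99 and 0.60 to 0.92, overlapping more widely. Their part in these levels was not tested.

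In the lysine pathway, LYS4 read 225.2, 176.2, 227.7, 285.6 and 331.1 in wild type and 205.4, 148.0, 216.3, 249.2 and 268.3 in the edc3 strain. Both strains were highest in E and G and lowest in B, and the experiments differed with an adjusted p of 0.00104, or 0.00381 with E and G averaged. Below, a second p marked averaged is the adjusted p of that fit. LYS20 was 0.36 and 0.28 above its mean in E and G and 0.47 below it in B (adjusted p = 0.00311; averaged 0.00952). LYS1 was 0.32 and 0.295 above in E and G and 0.11 to 0.27 below in the others (adjusted p = 0.00167; averaged 0.00791). LYS2 went another way, with its highest level in A, and was not called (adjusted p = 0.0643), but passed with E and G averaged (adjusted p = 0.0426). LYS12 passed with E and G apart (adjusted p = 0.0282) and not with them averaged (adjusted p = 0.0709).

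Arginine genes had the widest experiment spans of the families, with a median of 0.94 on the log2 scale. The widest in the family, ARG3 and ARG8 (1.44 and 1.035), were also its dimmest, reading 24.3 to 93.4 and 15.7 to 41.7. ARG3 was chosen here after its values were seen. It read 46.9, 33.1, 38.7, 86.6 and 93.4 in wild type and 31.4, 47.1, 24.3, 72.4 and 74.0 in the edc3 strain, and in both strains E and G were the highest arrays (adjusted p = 0.00515 between experiments; averaged 0.0154). ARG1 was 0.35 and 0.45 above its mean in E and G (adjusted p = 0.00505; averaged 0.0124), with the deletion arrays of E and G still below the wild-type arrays of the same experiments. ARG4 differed in pattern, with its highest level in B on both strains' arrays, 0.39 above the mean (adjusted p = 0.0143). GLN1, glutamine synthetase, read 1428.9 to 1639.9 in E and G and 908.3 to 1249.3 in A, B and C over both strains (adjusted p = 0.00157; averaged 0.00528). SER3 was also high in E and G, at 0.20 and 0.43 above its mean (adjusted p = 0.0183; averaged 0.0486).

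Experiment B had the largest single drops. ILV6 was 1.03 below its mean there and 0.22 to 0.28 above it in the other experiments, the smallest experiment p of the members (adjusted p = 5.20e-05). THR1 read 1956.1, 1355.0, 2351.1, 2760.5 and 2496.3 in wild type and 2051.8, 1123.4, 2470.1, 2405.3 and 2192.0 in the edc3 strain, so that both B arrays were again the lowest (adjusted p = 5.05e-04). In all, 11 of 56 probe sets had both B arrays below the other 8, 19.6% against 9.01% of all, and 12 of 56 after quantile normalization (11.5% of all). In the branched-chain family 1 of 13 probe sets, which stand for 11 genes, was above its mean in B, against 3872 of all 6492. The family's median level in B was -0.19, and the median of all tested probe sets was 0.06. GCN4, in contrast, had its highest level in B, 0.19 above its mean, and its lowest in A, -0.13 (adjusted p = 0.0100). The GCN4 signal and those of ILV6 and THR1 thus went opposite ways in B, a contrast with the largest drops only. Of the 56 probe sets 19 were above their mean in B, GCN4 among them, with ARG4 and ARO7 at 0.39 and 0.32.

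Both arrays of A were below the other 8 for 6 of 56 probe sets (5.45% of all), those of GCN4, LYS12, ARO1, ARO2, ARO3 and TRP5, and above them for 5 of 56 (9.13% of all), those of HIS7, ILV3, BAT2, LYS2 and HOM6. Of these 11, all but ARO3 and LYS2 were called between experiments. ARO2 went from -0.24 in A to 0.22 in C (adjusted p = 0.00505). BAT2 read 1104.7 and 1134.3 in A and 710.7 to 930.2 elsewhere (adjusted p = 0.00161), while its mitochondrial counterpart BAT1 was lowest in B and highest in E (adjusted p = 0.0253; averaged 0.0728). HIS7 was highest in A and lowest in C (adjusted p = 0.0111), and HOM6 went from 0.24 above its mean in A to 0.18 below it in G (adjusted p = 0.00195). LEU4 was 0.20 above its mean in C and 0.20 below it in G (adjusted p = 0.0111), and its copy LEU9 was not called (adjusted p = 0.619).

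The other experiments were at an extreme for further members. Both arrays of B were the highest for 5 of 56 probe sets (14.6% of all), those of GCN4, ARG4, ARO7, TRP4 and SER33. Both arrays of C were the highest for 4 of 56 (2.19% of all), or 7.14% of the members, those of ARO2, TRP5, LEU4 and GDH1, and the lowest for 3 of 56 (4.33% of all), those of ARO4, LYS9 and GLN1. E was the highest for 3 of 56 (3.77% of all), HIS1, HIS3 (2) and LYS20, and the lowest for 0 of 56 (7.16% of all). G was the highest for ARG8, 1 of 56 (2.66% of all), and the lowest for LEU4, 1 of 56 (1.26% of all).

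**Figure D4:**
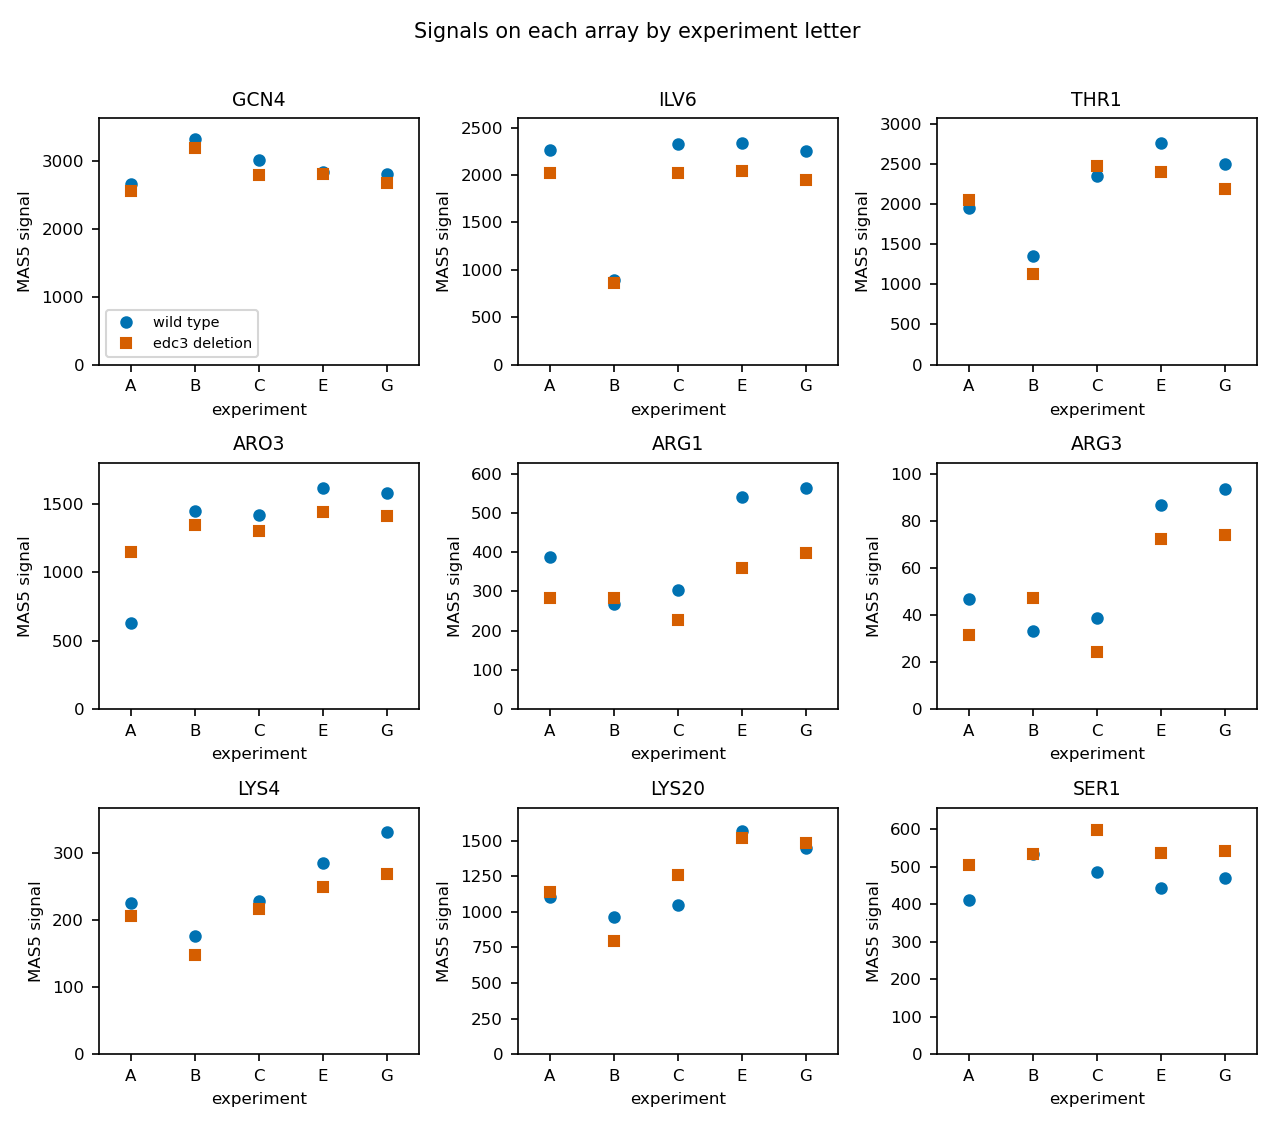
MAS5 signals (linear axis from 0) of GCN4 and 8 enzyme genes on each array, by experiment letter; circles are wild type and squares the edc3 deletion, 1 array each. ILV6 and THR1 drop in B in both strains, ARO3 is lowest on the wild-type array of A, at 627.2, and next lowest on the edc3 array of A, at 1148.4, and ARG3, LYS4 and LYS20 are highest in E and G.

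The experiment means of HOM2 and HIS2 spanned 0.08 and 0.15 on the log2 scale. Those of ILV1, LEU9, HOM3 and ASN2 spanned 0.035, 0.12, 0.155 and 0.165, and none of these 6 was called between experiments (adjusted p = 0.215 to 0.975).

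Neighbouring genes of the same pathways, listed by function with earlier results of these data known, were examined too. Of the 19 further biosynthesis genes analysed here, 14 were lower and 5 higher in the edc3 strain, with a median of -0.13, and 0 passed without or with the block. The lower share was 73.7%, against 51.1% of all probe sets. At an unadjusted p under 0.05 there was 1 without the block, or 5.26% against 4.82% of all, and 11 with it, or 57.9% against 23.1% of all. ARG7, ornithine acetyltransferase of arginine synthesis, read 508.7, 499.3, 448.3, 445.7 and 462.6 in wild type and 414.1, 460.4, 378.3, 378.0 and 397.7 in the edc3 strain. It was lower in all 5 experiments, with -0.22 ± 0.09 (SE, adjusted p = 0.943; blocked adjusted p = 0.0716). SHM1, the mitochondrial serine hydroxymethyltransferase, differed by -0.15 ± 0.08 (SE, adjusted p = 0.999).

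Regulators of the pathways gave 14 tested probe sets of 11 genes, 8 lower and 6 higher, with a median of -0.02 and 0 called in either fit. At an unadjusted p under 0.05 there were 3 without the block, or 21.4% against 4.82% of all, and 6 with it, or 42.9% against 23.1% of all. Of the 3, 2 were probe sets of GCN1. BAS1, an activator of histidine and purine genes, read 78.4, 77.5, 69.2, 84.5 and 87.1 in wild type and 57.5, 51.7, 63.0, 67.8 and 79.3 in the edc3 strain. It was lower in all 5 experiments, and differed by -0.32 ± 0.13 (SE, adjusted p = 0.977; blocked adjusted p = 0.0911). GCN1, the partner through which Gcn2 senses uncharged tRNA, had 4 tested probe sets, all with higher means in the edc3 strain but of unequal size, at 0.02 ± 0.10, 0.16 ± 0.17, 0.55 ± 0.23 and 0.87 ± 0.36 (SE). Their blocked adjusted p values were 0.889, 0.266, 0.0631 and 0.0814 in the same order. The first read 312.1 to 428.2 over the 10 arrays, and the last, with the largest difference, only 12.5 to 61.9. Median signals fell in the same order, at 381.4, 368.6, 122.2 and 32.25, so the larger differences came from the dimmer probe sets. Further GCN1 probe sets were too dim to be tested. In E and G alone the last 3 of the tested probe sets passed without the block (adjusted p = 0.0275, 0.00235 and 0.0105), where 19.5% of all probe sets were called. The 3′ to 5′ ratio of the control signals was higher in wild type in E and G, and its part in the GCN1 values was not tested. GCN2 itself differed by -0.02 ± 0.10 (SE). PCL5, a cyclin that promotes the breakdown of Gcn4, differed by -0.15 ± 0.27 (SE).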

How the data were processed

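RNA of 10 yeast cultures was measured on 10 arrays, 5 per strain; the growth temperature was 30 °C and the labels state 6 µg of total RNA per labelling. The deposited values are intensities: per the submitters' processing notes, the authors computed MAS5 signals, 1 for each probe set of an array; version, background settings and scaling are not given in the sources used here. Array medians lay between 58.2 and 66.7. No detection calls are given, so a dim signal cannot be told from none, and the number of arrays limits the precision.

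Symbols were assigned by gene identifier from the RefSeq R64 table (6504 probe sets with 1 gene, 328 with several, 2443 with none, 60 controls). Signals were taken to log2, 156 zeros being raised to 0.1. The dimmest 30% by mean log2 signal (under 16.8) were left out. limma 3.58.1 in R 4.3.3 (eBayes with trend) compared the strains without a block, and gave F tests over experiments with strain in the fit. Benjamini-Hochberg adjustment ran over all 6492 probe sets. The exact permutation test is two-sided.

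Same-lettered arrays were taken as pairs, since their deviations from the strain means correlated at 0.475 to 0.713 across probe sets in the 5 experiments. The scripts were tested on simulated data. Other scalings, offsets, filters, variance models and left-out arrays were tried. Named in full were GCN4 and the marker genes, in each family the genes of smallest strain and experiment p, the paralogs, and the 2 genes of smallest p in each further list; other genes given with all array values were chosen after these were seen. The members and lists were chosen with earlier results of these data known. The labels call the arrays biological replicates.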

Additional observations from a re-analysis of the deposited data

Results flagged for a closer look

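Each strain's 5 arrays were searched for an array far from the other 4, in 112 groups of 5 arrays, and 10 such arrays were found. In these 10, the gap to the nearest other array was 0.714 to 0.947 of the full range of the 5 arrays. Chance sets about 1 in 20 groups apart this way. The share over all tested probe sets was not counted, so the number cannot be read as particular to the members. The ILV6 signal of experiment B was apart in both strains, at 895.6 in wild type (others 2257.9 to 2334.0) and 862.7 in the deletion strain (others 1949.7 to 2043.5). In wild type, experiment A was low for ARO3, at 627.2 (others 1417.3 to 1612.9), and for ARO1, at 1588.8 (others 1983.7 to 2141.9). Also in wild type, TRP4 was high in experiment B, at 506.4 (others 376.7 to 398.0), and GDH1 was high in experiment C, at 2491.5 (others 2018.4 to 2096.2). In the deletion strain, experiment B was high for ARO7, at 445.5 (others 336.1 to 359.0), and for SER33, at 305.5 (others 240.7 to 249.5), and low for ILV1, at 900.1 (others 962.8 to 980.1). TRP2 was low in experiment C of the deletion strain, at 669.5 (others 874.1 to 951.0).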

How the results depend on the processing

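The count of member probe sets called between strains was 0 of 56 under the replicate block, quantile normalization, an offset of 16, no filter, eBayes without trend, array weights and the chip lot as a block, and 0 of the 52 left when the dimmest 50% were left out. It was also 0 with E and G averaged and with A, B and C alone, each without and with the block, and within the chip lot of B and C, an alternative added after the data were seen. The instrument records gave a chip lot for A and another for B and C. The lot entry of E was blank and that of G was missing. In the lot block, E and G therefore each formed a level without a known lot. Leaving out an array, or an experiment with the block, gave 0 to 1, the 1 being ARG1 without experiment B. Experiments E and G alone gave 10, and 25 with the block. In E and G alone the sign also turned, with a call, for LEU2 (1) at 0.43 and LEU2 (2) at 0.27, without and with the block, and with the block for GLN1 at 0.11 and ARO3 at -0.16. The cause was not tested. Of 928 values of the 31 named probe sets under alternatives, 84 had the other sign without a call, in 17 probe sets. The count called between experiments, 30, was 17 with A, B and C alone (16.6% of all) and 19 to 32 on leaving out 1 experiment, the 19 without B; fewer arrays entered these fits. It was 22 to 30 under the other settings. With 5 arrays per strain, 9 of the 56 intervals without the block reached past a 1.5-fold strain difference.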
